A study of Oryza sativa with 4 samples.

Results

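In rice seedling shoots, 342 of 55985 listed genes had at least 1 RPKM (reads scaled by the length of the gene model and the total of the library) in both libraries of the japonica cultivar Nipponbare and were listed at exactly 0 in both libraries of the indica cultivar 93-11. They made up 2.14 percent of the 16018 genes that reached 1 RPKM in both Nipponbare libraries, called expressed genes below. They were chosen by their RPKM in the 4 libraries, so the contrast between cultivars is a description here and carries no test. The series holds 4 RNA-seq libraries of seedlings 15 days old, each made from the pooled aerial parts of 1 cultivar in 1 condition. The groups are Nipponbare untreated, Nipponbare chilled (33 h at 4 °C), 93-11 untreated and 93-11 chilled, and every group grew in a 28 °C day and a 25 °C night before that. With 1 library a group there is no replicate spread, and intervals below are 95% intervals that cover counting error only.

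The japonica and indica subspecies of rice differ in gene content as well as in sequence. Genes that one cultivar carries and another lacks are often found in groups, among copies arrayed side by side and near transposable elements, and disease resistance genes are a known case. LOC_Os identifiers are the names given to loci of the Nipponbare genome, numbered along each chromosome, so a gene that only 93-11 carries has no such name. The identifiers come without descriptions and 0 of them are in the reference gene table, so no role is given to any of the 342 genes. A gene that 93-11 lacks, a gene that it does not transcribe and reads of 93-11 lost at sequence differences during mapping cannot be told apart in these values.

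The libraries held 12671333 reads for untreated Nipponbare, 13482486 for chilled Nipponbare, 16682882 for untreated 93-11 and 13012799 for chilled 93-11, worked out from the RPKM steps. The untreated 93-11 library was the deepest, and the chilled 93-11 library lay between those of Nipponbare in depth but had the fewest genes above 0, 27969 against 28206 to 30127 in the others. Tissue markers were paired with locus identifiers from general knowledge, and only the symbol and its chromosome were checked in the reference table. The green-tissue marker CAB1R stood at 4470 RPKM in untreated Nipponbare, 13.4 in chilled Nipponbare, 5020 in untreated 93-11 and 52.1 in chilled 93-11, and CAB2R at 6200, 90.7, 6390 and 58.7. The root marker LSI1 stood at 5.57, 1.08, 6.09 and 5.07 in the same order and HKT2;1 at 1.30, 0.355, 2.61 and 0.695. The shoot meristem marker OSH1 was at most 0.0721. The untreated libraries thus carried green-tissue transcripts at high level, with root markers at 6.09 RPKM or less in all 4 libraries. The reverse rule, at least 1 RPKM in both 93-11 libraries and 0 in both Nipponbare libraries, was met by 97 of 15498 genes, or 0.626 percent.

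Most of the 342 genes were weakly to moderately expressed in Nipponbare. Their median was 5.27 RPKM untreated (quartiles 2.42 and 11.1) and 3.84 chilled (quartiles 1.85 and 9.56), against 11.6 and 9.64 for all expressed genes. Both libraries were at 10 RPKM or more for 58 of them. The share of expressed genes that were listed at 0 in 93-11 fell with the Nipponbare level. It was 6.55 percent among genes with a mean of 1 to 2 RPKM, 4.21 percent from 2 to 5, 2.12 percent from 5 to 10, 1.38 percent from 10 to 20, 1.16 percent from 20 to 50 and 0.358 percent (8 of 2236) from 50 upward.

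**Figure D1:**
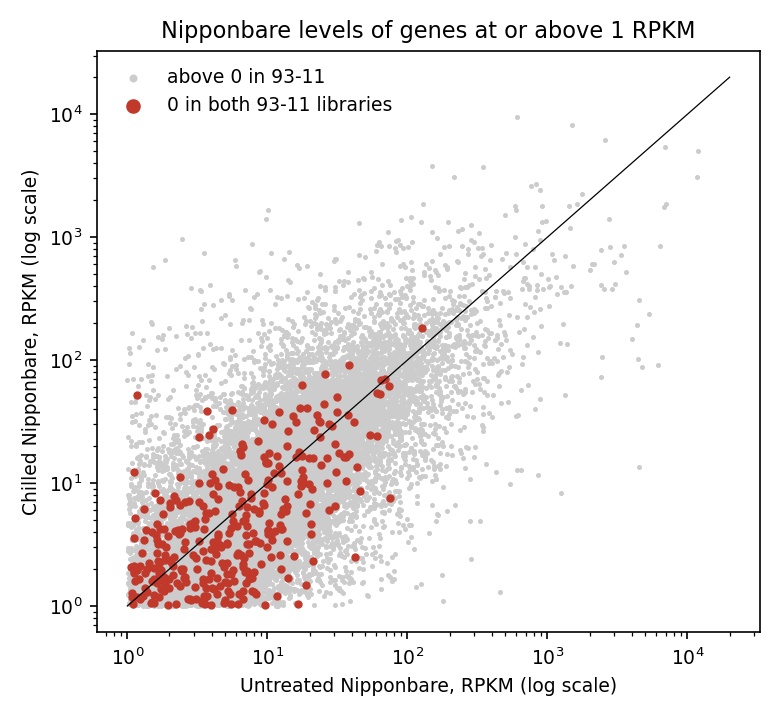
Level in chilled against untreated Nipponbare, in RPKM on log axes, for every gene of at least 1 RPKM in both libraries, with the 342 genes at 0 in both 93-11 libraries in red and the line of equal level in black. The red points fill the lower left of the cloud, and their highest point is LOC_Os09g32169 at 127 and 181 RPKM.

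LOC_Os09g32169 had the highest mean level of the set. It stood at 127 RPKM in untreated and 181 RPKM in chilled Nipponbare, or 985 and 1491 reads, and at 0 in both 93-11 libraries. At the Nipponbare level the 93-11 libraries would have held 2796 reads of it together, so against a floor of 3 reads over both libraries Nipponbare was at least 932-fold higher. Its listed neighbours gave little signal: LOC_Os09g32160 was at 0 in all 4 libraries, and LOC_Os09g32180 stood at 1.28 and 0.417 RPKM in Nipponbare (untreated and chilled) and at 1.94 and 0.973 in 93-11.

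LOC_Os12g03800 stood at 69.4 RPKM untreated and 70.6 chilled, with almost no difference in RPKM between the Nipponbare libraries. After the scaling used below, its log2 ratio of chilled over untreated reads was 0.39 (interval 0.25 to 0.52). The next locus, LOC_Os12g03810, was read in every library, at 10.4 and 6.33 RPKM in Nipponbare and 7.25 and 6.89 in 93-11. A gene at 0 in 93-11 thus stood directly beside one at a like level in both cultivars.

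The other 8 of the 10 highest genes lay on chromosomes 2, 3, 6, 9 and 11. LOC_Os09g20024 stood at 73.8 RPKM untreated and 62.1 chilled, LOC_Os03g37864 at 64.3 and 68.9, LOC_Os06g41120 at 63.7 and 52.7, and LOC_Os09g17049 at 60.6 and 53.9. These 4 genes were nearly level in RPKM between the Nipponbare libraries, with scaled log2 ratios from 0.09 to 0.46. LOC_Os06g05440 (38.0 and 91.5 RPKM) and LOC_Os02g57924 (25.9 and 76.7) were higher in the chilled library. LOC_Os02g37800 (75.0 and 7.57) was lower there, and LOC_Os11g17350 stood at 60.8 untreated and 24.2 chilled.

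The read support behind a zero differed widely over the set. The 342 genes had a median of 102 reads over both Nipponbare libraries, with a range from 2 to 3350, against a median of 461 for all expressed genes. At the Nipponbare level the 93-11 libraries would have held a median of 116 reads a gene. That figure was at least 10 reads for 331 genes and at least 100 for 180. Against the floor of 3 reads, Nipponbare was at least 10-fold higher for 280 genes and at least 100-fold higher for 90. LOC_Os09g17049 had the most reads, 1721 untreated and 1629 chilled, and was at least 1270-fold higher.

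Exact zeros were about as many as the genes in each of the next ranges of the ratio between cultivars, up to 10 percent. These ranges differ in width. Among the 13817 expressed genes with 100 or more Nipponbare reads, 172 (1.24 percent) were at 0 in both 93-11 libraries. A further 159 (1.15 percent) were above 0 but under 1 percent of the Nipponbare mean, and 160 (1.16 percent) were from 1 to 10 percent of it. Most genes, 12126 or 87.8 percent, lay between 0.5 and 2 times the Nipponbare mean. LOC_Os05g10414 shows how close some genes outside the rule came: it had 88.1 and 211 RPKM in Nipponbare and 1 read in untreated 93-11. LOC_Os03g57545 (78.3 and 86.9 RPKM) and LOC_Os12g36060 (81.2 and 56.3) also had 1 read over both 93-11 libraries.

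The genes nearest to the 1 RPKM minimum were placed by 1 of their Nipponbare values. LOC_Os01g18160 was just inside at 1.94 RPKM untreated and 1.01 chilled, LOC_Os11g39320 at 3.96 and 1.02, and LOC_Os08g43310 at 9.65 and 1.02. Just outside, also at 0 in both 93-11 libraries, were LOC_Os07g22940 at 1.68 and 0.989, LOC_Os09g06570 at 0.988 and 1.59, and LOC_Os06g49690 at 0.988 and 1.39. Beside the 342 genes, 129 expressed genes were at 0 in the chilled 93-11 library alone, which held 13012799 reads, and 64 in the untreated one alone, which held 16682882. The part of depth in that difference was not tested.

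Genes of the set differed between the chilled and untreated Nipponbare libraries in both directions. With libraries scaled by trimmed mean of M-values, a gene was called higher or lower by size when its whole counting interval lay past 2-fold. By that measure 37 of the 342 genes (10.8 percent) were higher in the chilled library, against 19.2 percent of all expressed genes. Another 31 (9.06 percent) were lower, against 12.5 percent of all expressed genes. Calls by size depend on reads, of which these genes had fewer: among those with 100 or more reads, 26 of 172 (15.1 percent) were higher and 27 (15.7 percent) lower, against 21.4 and 14.0 percent of all such genes. Such calls compare 2 libraries, not conditions with replicates, and in whole shoots fewer cells of a type and less RNA per cell cannot be told apart.

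The median log2 ratio of chilled over untreated was 0.07 for the set and 0.09 for all expressed genes. The ratio was above 0 for 181 of the genes and below 0 for 161, and the interval held 0 for 138. The whole interval lay above 0 for 31.3 percent of the set and 42.1 percent of all expressed genes, and below 0 for 28.4 and 36.0 percent. These counts rest on the scaling, which set the chilled library at -0.36 log2 units against the untreated one. Of the calls in the set, 54.4 percent were higher, as were 60.5 percent of the calls over all expressed genes. With the values as deposited these shares were 26.5 and 42.4 percent, and with upper quartile scaling 37.5 and 48.8 percent, while the medians moved to -0.29 and -0.27, and to -0.16 and -0.14.

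**Figure D2:**
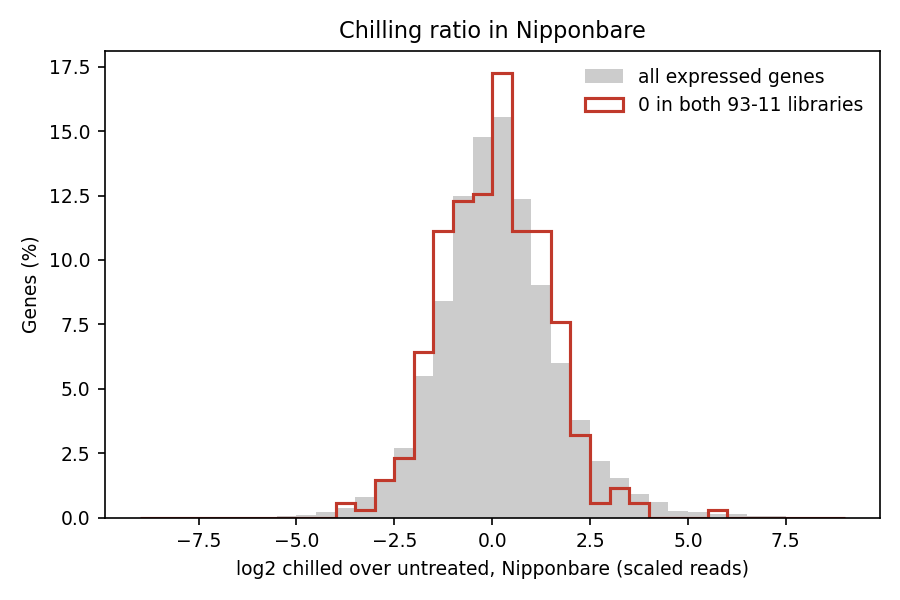
Distribution of the log2 ratio of chilled over untreated reads in Nipponbare, as percent of genes in bins 0.5 wide, for the 342 genes at 0 in 93-11 (red outline) and all 16018 expressed genes (grey). Both centre near 0, at medians of 0.07 and 0.09, and the red outline has 1 gene beyond 5, LOC_Os06g05420.

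The largest rise in the set was that of LOC_Os06g05420 on chromosome 6. It went from 1.18 RPKM (11 reads) in untreated to 52.0 RPKM (515 reads) in chilled Nipponbare, a log2 ratio of 5.76 (interval 4.97 to 6.83). LOC_Os07g12540 went from 3.72 to 38.3 RPKM, a log2 ratio of 3.70 (3.14 to 4.37). LOC_Os06g28680 went from 1.11 to 12.4 RPKM on only 6 and 71 reads, so its ratio of 3.73 has the wide interval 2.64 to 5.33.

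The other 5 of the 8 highest ratios among called genes ran from 2.68 to 3.21. LOC_Os06g38660 went from 3.22 to 23.7 RPKM, LOC_Os08g23210 from 5.60 to 39.6, LOC_Os07g13360 from 4.12 to 27.5, LOC_Os10g36610 from 3.80 to 24.5 and LOC_Os11g28170 from 1.59 to 8.30. By the rule, each of these genes was at 0 in chilled as in untreated 93-11, so the set cannot show a rise there.

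The deepest fall was that of LOC_Os08g28784, from 42.3 RPKM (158 reads) to 2.51 (10 reads), a log2 ratio of -3.65 (interval -4.80 to -2.79). LOC_Os02g37800 fell from 75.0 RPKM (1659 reads) to 7.57 (178 reads), a log2 ratio of -2.95 (-3.18 to -2.73), the narrowest interval among the falls named here. LOC_Os02g37770, 3 listed identifiers away from it, went from 16.4 to 1.04 RPKM, a log2 ratio of -3.56 (-4.60 to -2.78). LOC_Os06g38450 went from 19.0 to 1.49 RPKM with a ratio of -3.29 (-3.91 to -2.76).

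The remaining 4 of the 8 lowest ratios ran from -2.81 to -2.67. They were those of LOC_Os03g33570 (11.8 to 1.20 RPKM), LOC_Os08g43310 (9.65 to 1.02), LOC_Os12g12090 (21.2 to 2.33) and LOC_Os12g35395 (14.0 to 1.68). All 8 highest and all 8 lowest of these genes stayed past 2-fold under the 3 other scalings tried. The rule asks for at least 1 RPKM in both Nipponbare libraries. A gene that was below that level in the chilled or the untreated library is thus not in the set.

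The genes were spread over all 12 chromosomes, but not in proportion to expressed genes. The lowest share was on chromosome 3, where 17 of 2253 expressed genes (0.755 percent) were at 0 in 93-11. The highest were on chromosome 12, with 44 of 857 (5.13 percent), chromosome 11, with 34 of 755 (4.50 percent), and chromosome 10, with 26 of 786 (3.31 percent). Chromosomes 11 and 12 together held 22.8 percent of the set and 10.1 percent of expressed genes.

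The same chromosomes stood apart among genes with 100 or more reads. There the share was 3.42 percent on chromosome 11, 2.73 percent on chromosome 12 and 2.36 percent on chromosome 10, against 0.503 percent on chromosome 3, 0.546 percent on chromosome 1 and 0.651 percent on chromosome 2. Under the reverse rule the shares ran from 0.315 percent on chromosome 2 to 1.30 percent on chromosome 11, with 1.17 percent on chromosome 9. Chromosome 12, at 0.634 percent, was near the 0.626 percent of all chromosomes, and chromosome 10, at 0.526 percent, was below it. No test was made of these shares, since neighbouring genes are not independent.

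**Figure D3:**
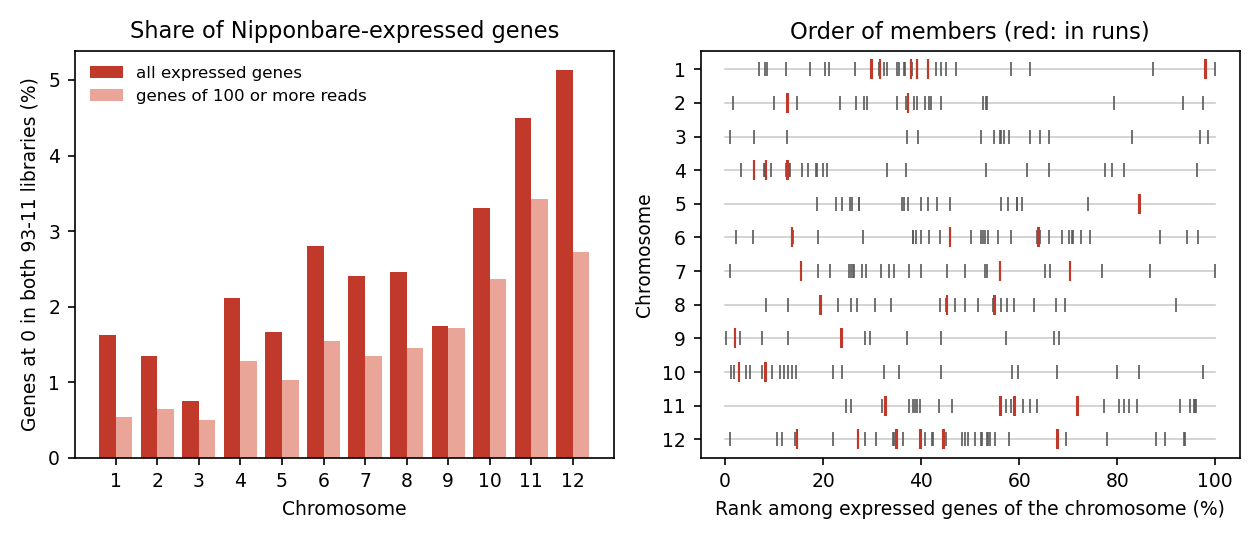
Left, percent of Nipponbare-expressed genes on each chromosome that are at 0 in both 93-11 libraries, for all expressed genes (dark) and those with 100 or more Nipponbare reads (light), which runs from 0.755 percent on chromosome 3 to 5.13 percent on chromosome 12 for all expressed genes. Right, the place of each of the 342 genes in the order of expressed genes along its chromosome, with tall red marks for genes in runs.

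Within chromosomes, the genes were counted in stretches of 100 consecutive expressed genes. The densest stretches held 14 of them, on chromosome 10 from LOC_Os10g01610 to LOC_Os10g11022 and on chromosome 12 from LOC_Os12g10700 to LOC_Os12g18700. The shares of these whole chromosomes were 3.31 and 5.13 percent. On chromosome 4, with a share of 2.12 percent, the stretch from LOC_Os04g09580 to LOC_Os04g22270 held 12. The densest stretch of chromosome 3, with a share of 0.755 percent, held 5. Each is the highest of all stretches on its chromosome, so it lies above the chromosome share by choice. Uneven placement within chromosomes was not tested. The members of the chromosome 10 stretch differed between the Nipponbare libraries in both directions: LOC_Os10g02270 had 45.9 RPKM untreated and 8.65 chilled (log2 ratio -2.04, interval -2.39 to -1.72), while LOC_Os10g02670 had 2.58 and 6.98 (1.79, 1.22 to 2.41).

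Runs were counted as 2 or more of the genes with no other expressed gene between them. There were 35 runs, 30 of 2 genes and 5 of 3 genes, holding 75 of the 342 genes (21.9 percent). In 10 of the runs the members were directly adjacent identifiers. In others, loci that were not expressed in Nipponbare by the 1 RPKM limit lay between members, and some of these were above 0 in 93-11. LOC_Os04g09654 and LOC_Os04g10214 had 51 listed loci between them, 23 of which were above 0 in 93-11. A run is thus not always an unbroken stretch of zeros in 93-11. Counted from each side, 80 of 682 expressed genes next to a gene of the set (11.7 percent) were in it. Of all expressed genes, 2.14 percent were. Under the reverse rule 15 of 97 genes (15.5 percent) lay in 7 runs. That set is sparser, at 0.626 percent of its expressed genes, so the shares in runs cannot be compared directly. The number of the 342 genes in runs depends on the definition and the minimum level. Only 27 genes were in runs by direct adjacency and 9 at a minimum of 5 RPKM. When any gene above 0 in 93-11 ended a run, 47 were.

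The run LOC_Os01g73644, LOC_Os01g73650 and LOC_Os01g73656 is made of 3 adjacent identifiers near the end of chromosome 1. Untreated and chilled Nipponbare stood at 12.5 and 5.59 RPKM for the first, 4.75 and 2.23 for the second and 13.3 and 7.44 for the third. The expressed gene before the run, LOC_Os01g73620, had a mean of 21.5 RPKM in Nipponbare and 16.8 in 93-11. The one after it, LOC_Os01g73670, had 45.7 in Nipponbare and 1.64 in 93-11, so the low level in 93-11 went on past the last zero.

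On chromosome 2 a run of 3 lay in a longer stretch of zeros. LOC_Os02g06760 stood at 2.13 RPKM in each Nipponbare library, LOC_Os02g06770 at 5.48 untreated and 1.82 chilled, and LOC_Os02g06790 at 17.6 and 16.7. The loci LOC_Os02g06754 (2.30 and 0.811) and LOC_Os02g06779 (2.38 and 0.509) stood just before and within the run, were also at 0 in both 93-11 libraries and missed the rule by their chilled level. Past LOC_Os02g06810 came LOC_Os02g06820, at 2.83 and 0.237 in Nipponbare with 1 read in each 93-11 library, and then LOC_Os02g06830, which was higher in 93-11 (5.38 and 1.95) than in Nipponbare (0.396 and 0.517). On the near side LOC_Os02g06725, at 7.42 and 2.22 in Nipponbare, stood at 7.67 and 3.40 in 93-11, and on the far side LOC_Os02g06840, at 39.2 and 91.3, stood at 30.4 and 82.8.

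In the run of chromosome 11 all 3 genes were at about 10 RPKM or more. LOC_Os11g09830 stood at 9.91 and 9.90 RPKM (untreated and chilled), LOC_Os11g09850 at 10.3 and 17.7, and LOC_Os11g09864 at 13.8 and 10.4, on 317 to 568 reads each. The run of chromosome 12 joined unlike genes: LOC_Os12g12090 fell from 21.2 to 2.33 RPKM, LOC_Os12g12110 had 2.47 and 4.23, and LOC_Os12g12115 stood at 29.0 and 29.2. The run of chromosome 1 from LOC_Os01g37210 to LOC_Os01g37260 was the weakest, with 1.47 to 4.55 RPKM over its 3 genes and both libraries.

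Several stretches held zeros broken by loci of a few reads, 2 of which are described here because they hold the extreme ratios named above. On chromosome 6, LOC_Os06g05420 and LOC_Os06g05424 (1.90 and 3.03 RPKM) were followed by LOC_Os06g05430, at 6.42 and 3.90 RPKM in Nipponbare and 0.203 and 0.391 in 93-11, and by LOC_Os06g05440. Just before them LOC_Os06g05410, no member by its untreated level, went from 0.849 to 78.8 RPKM in Nipponbare and had 0 and 4 reads in 93-11. LOC_Os06g05440 rose by a log2 ratio of 1.63 (interval 1.47 to 1.79) and LOC_Os06g05410 by 6.73 (5.53 to 8.78). On one side LOC_Os06g05400 stood at 131 and 110 RPKM in Nipponbare and 162 and 152 in 93-11. On the other side LOC_Os06g05450 was higher in the chilled library of both cultivars, going from 2.30 to 40.4 RPKM in Nipponbare (log2 ratio 4.44, interval 3.66 to 5.47) and from 0.729 to 15.1 in 93-11 (5 and 81 reads).

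On chromosome 2 the loci from LOC_Os02g37750 to LOC_Os02g37800 were low in 93-11 and mostly lower in chilled Nipponbare. LOC_Os02g37750 went from 11.5 to 0.817 RPKM and LOC_Os02g37780 from 11.4 to 1.09, with 2 and 1 reads in untreated 93-11 and 0 in chilled 93-11. Their log2 ratios were -3.30 (interval -5.38 to -2.02) and -2.92 (-4.53 to -1.82), beside -3.56 and -2.95 for the members LOC_Os02g37770 and LOC_Os02g37800. LOC_Os02g37790 had 5 and 3 reads in Nipponbare and 5 and 2 in 93-11, too few to compare. LOC_Os02g37830, past 2 loci at 0 in every library, stood at 96.2 and 44.7 RPKM in Nipponbare and 67.4 and 47.6 in 93-11.

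**Figure D4:**
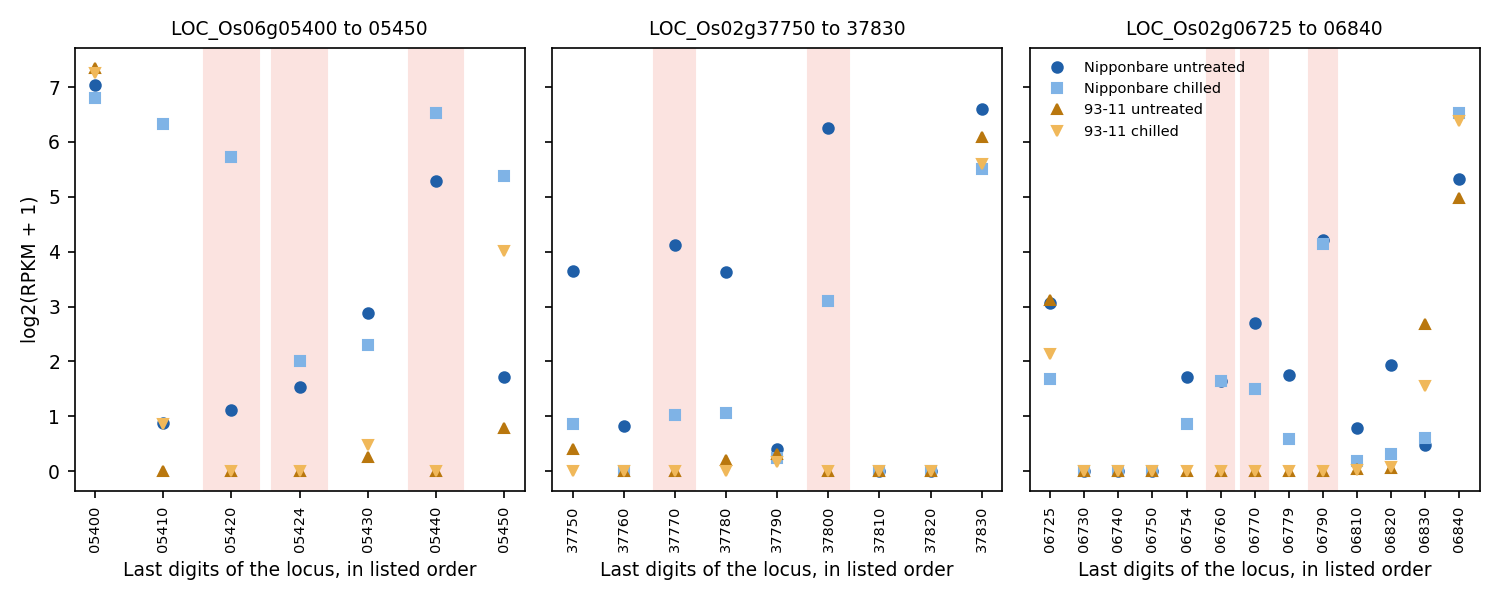
Level in each of the 4 libraries, as log2(RPKM + 1), for the loci of 3 stretches in listed order, with the genes of the set shaded. At the shaded loci both 93-11 points (orange) lie at 0 below the Nipponbare points (blue), and the last locus of each panel is read in both cultivars.

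Expressed genes next to the set were low in 93-11 more often than other expressed genes. Each of these neighbours was above 0 in at least 1 of the 93-11 libraries, since the rule was applied to them as well, so the shares are a description. Of the 580 nearest expressed neighbours that were not in the set, 74 (12.8 percent) had a 93-11 mean under 10 percent of the Nipponbare mean, against 421 of 15676 (2.69 percent) of all expressed genes outside the set. With 100 or more reads the shares were 11.6 and 2.34 percent. The genes compared were not matched by chromosome, and the part of chromosome in the difference was not tested. Most neighbours were nonetheless read at a like level in both cultivars, with a median ratio of 93-11 over Nipponbare of 0.857, against 0.954 for all expressed genes outside the set.

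The share was highest within 2 places. Genes of the set were counted as well, and each gene counted once for every gene of the set at that distance. By that count 23.5 percent of expressed genes 1 place away (160 of 682) were under 10 percent of the Nipponbare mean. The share was 16.3 percent 2 places away and 9.54 percent 3 places away. Of the 160, 80 were genes of the set, which are low by the rule. From 3 to 100 places away the share went up and down between 5.91 percent (15 places) and 10.1 percent (4 places) with no steady fall. It was 7.09 percent at 100 places, while 4.76 percent of all expressed genes, each counted once, met the same limit. The share 100 places away was still above that of all expressed genes, and the set sits more on chromosomes 10 to 12. The part of chromosome in it was not tested.

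**Figure D5:**
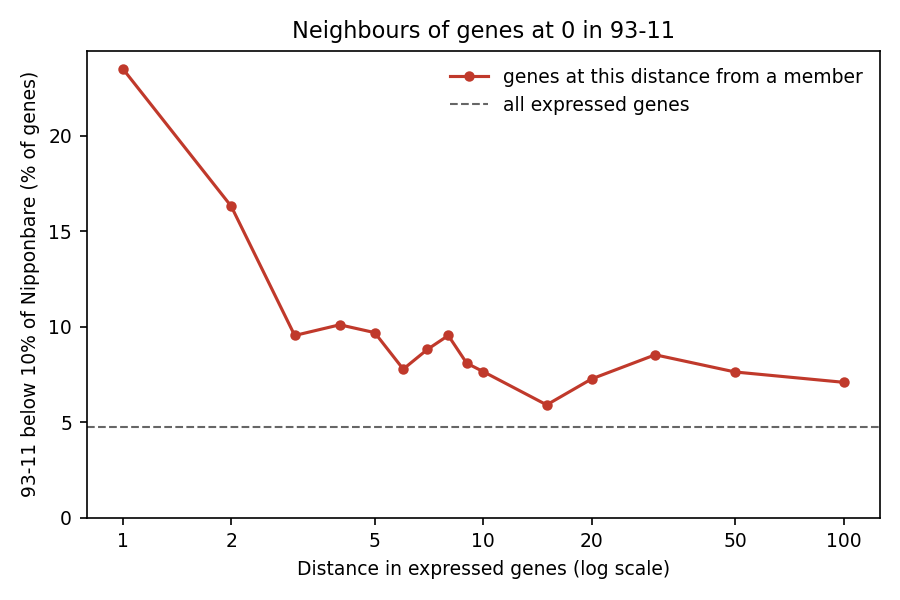
Percent of expressed genes whose 93-11 mean is under 10 percent of the Nipponbare mean, against their distance from a gene of the set in places along the order of expressed genes (log axis), with the share over all expressed genes (4.76 percent) as a dashed line. The share falls from 23.5 percent at 1 place to 9.54 percent at 3 places. A gene counts once for every gene of the set at that distance, and genes of the set are included.

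The gene models of the set were short. Their median length, worked out from the RPKM steps of the Nipponbare libraries, was 728 bases against 1520 for all expressed genes solved the same way. Among genes with 100 or more reads the medians were 1160 and 1660 bases. A short gene has fewer reads at the same RPKM, so length and the chance of a zero move together in the full set. Solved lengths can be a whole fraction of the true ones.

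Neither of the lists looked up held a gene of the set. The identifiers in both lists come from general knowledge and are not paired with names in the reference table. Of 24 listed loci reported to differ between japonica and indica cultivars, 5 were expressed and 0 were in the set, which at a share of 2.14 percent of all expressed genes tells nothing of the list. Of 14 genes of the diterpenoid phytoalexin clusters, which make antimicrobial compounds, 0 reached 1 RPKM in both Nipponbare libraries, so 0 could be in the set.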

How the data were processed

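Each file holds 1 value per gene and library, in RPKM as deposited by the authors. That unit was read from the values, since the labels do not name it. Per the submitters' processing notes, the tools included TopHat2 2.0.9, HTSeq 0.5.4p3 and Bowtie2 2.0.6. Not given in the sources used here: the build, the annotation, the use of strand and the genome that 93-11 reads were mapped to. Antisense, overlapping and near-identical genes are therefore uncertain as single genes.

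For all 36941 genes above 0, 1 whole length and 1 whole total per library turned every value into whole reads, within the rounding of the deposited decimals. With totals of 2 libraries shifted by 1 and 2 percent, 0 of 200 genes could be solved. Reads are known up to a common whole factor, so intervals err on the wide side and fold bounds on the low side. Reads of expressed genes were solved from the Nipponbare values alone, for members and others alike.

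Ratios of chilled over untreated reads (0.5 added) used a trimmed mean of M-values scaling (trims 0.3 and 0.05), with exact conditional binomial (Clopper-Pearson) 95% intervals. The design holds 1 library a group, so no test was made. The steps were tested on simulated data. Chromosome and order come from the locus identifiers, which 185 of the 55985 identifiers lack; no gene of the set is among these. Named genes are the 10 highest means, the 8 highest and 8 lowest ratios called by size, the members of the longest runs (5 runs tied at 3 genes) and the 3 genes on each side of the minimum; others named were chosen after their values were seen. The rule, the lists and the tests were chosen with earlier results of these data known. Python 3.11.15, pandas 2.3.3, numpy 2.4.6, scipy 1.17.1 and matplotlib 3.10.9 were used.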

Additional observations from a re-analysis of the deposited data

How the results depend on the processing

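No paired analysis was possible because each group holds 1 library. The 342 genes became 212 at a minimum of 2 RPKM, 105 at 5 RPKM and 172 with 100 or more Nipponbare reads, a limit chosen after seeing the data, and stayed within 1.5 times under the other alternatives. The 75 genes in runs became 137 at 0.5 RPKM, 29 at 2 RPKM, 9 at 5 RPKM, 138 with a limit of 0.1 RPKM in 93-11, 117 with a zero required in chilled 93-11 alone and 27 by direct adjacency. They were 47 when any gene above 0 in 93-11 ended a run and 27 with 100 or more reads, both chosen after seeing the data. The share on chromosomes 11 and 12 ran from 20.8 to 23.8 percent. The 37 higher genes became 18 with values as deposited, 24 with upper quartile scaling, 15 of the 105 genes at 5 RPKM and 106 with no filter. Over all expressed genes the 3077 higher became 2251 as deposited, 2499 with upper quartile scaling and 2186 at 5 RPKM. With no filter, the genes counted were all those at 0 in 93-11 and above 0 in a Nipponbare library. That is a larger set with no count over all genes beside it. Called by the ratio alone, with no interval, the higher genes of the set were 60 with a pseudocount of 1 RPKM and 83 with 0.1 RPKM. Those of all expressed genes were 3652 and 3982. The 31 lower genes became 50 as deposited, 7 at 5 RPKM, 127 with no filter, and 54 and 75 with those pseudocounts. Over all expressed genes the 2007 lower became 3057 as deposited, 842 at 5 RPKM, and 2680 and 3151 with the pseudocounts. The median ratio of 0.07 became -0.29 as deposited, -0.16 with upper quartile scaling, -0.47 with no filter and 0.36 at 5 RPKM. The sign of the median thus changed with scaling and filter.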

Other observations

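The locus numbers of the set were often of the in-between kind. LOC_Os numbers run in steps of 10, and numbers that do not end in 0 were given to loci named after the first numbering. Of the 342 genes, 62 (18.1 percent) have such a number, against 1234 of 15668 (7.88 percent) of the other expressed genes with a locus number and 6.33 percent of all listed ones. Among genes with 100 or more Nipponbare reads the shares were 26.7 percent (46 of 172) and 7.36 percent. Under the reverse rule the share was 9.47 percent (9 of 95). LOC_Os09g32169 and LOC_Os09g17049, the genes of the set with the highest level and the most reads, both have such numbers. No test was made of these shares.

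For 5 of the 342 genes, a gene of the reverse rule, at 0 in Nipponbare and expressed in 93-11, lay within 5 listed identifiers. The same share over all expressed genes was not counted, so no excess of such pairs can be read from this. LOC_Os05g46890 stood at 21.6 RPKM untreated and 26.8 chilled in Nipponbare, and LOC_Os05g46845, 3 identifiers away, at 19.9 and 20.8 in 93-11. LOC_Os12g15505 stood at 36.6 and 16.3 in Nipponbare, and LOC_Os12g15490 at 2.56 and 1.79 in 93-11. The other pairs were LOC_Os05g11064 with LOC_Os05g11005, LOC_Os07g26760 with LOC_Os07g26710 and LOC_Os12g21784 with LOC_Os12g21820, in which the gene read in 93-11 had 1.07 to 3.88 RPKM. Whether the members of a pair share sequence was not analysed here.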
